A study of Mus musculus with 9 samples.

Results

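Transcripts of 10 genes of the IL-1 and TNF pathways were followed through liver regeneration in mice: the ligands *Il1a*, *Il1b*, *Il18* and *Tnf*, the antagonist *Il1rn*, the receptor chains *Il1r1*, *Il1rap* and *Tnfrsf1a*, and the feedback inhibitors *Nfkbia* and *Tnfaip3*. They were chosen by name, all 10 were found among the 43346 genes of the count table, and 9 of them passed the filter on low counts that left 15024 genes for testing. *Tnf* did not pass. Whole liver lysates of male WT C57/BL6 mice (C57BL/6J in the study's methods), 12 weeks old, were profiled by RNA-Seq in 3 groups of 3 biological replicates. All mice had 70% partial hepatectomy. Vehicle mice were injected i.p. with saline, and NSC mice with NSC-87877, an inhibitor of the phosphatases SHP2 and SHP1, at 7.5 mg/kg per dose. Both had 2 doses per day, with the first 12 h before surgery according to the sample records. The baseline group (0 h) is the liver resected from vehicle mice, so it too carries vehicle treatment, and the other groups are remnants of vehicle mice and of NSC mice 40 h after surgery. A baseline from NSC mice was not analysed here, both 40 h groups were set against the same 3 baseline livers, and whether a baseline and a remnant with the same number came from 1 mouse is not stated.

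IL-1α and IL-1β are cytokines, the latter made mainly by macrophages and monocytes, and both act through the receptor IL1R1, which recruits its partner IL1RAP. The antagonist IL1RN occupies IL1R1 without recruiting that partner. TNF signals through TNFR1, encoded by *Tnfrsf1a*, and both pathways converge on the IKK kinases and the transcription factor NF-κB. NF-κB in turn raises transcription of its own inhibitors, among them *Nfkbia*, which encodes IκBα, and *Tnfaip3*, which encodes the ubiquitin-editing enzyme A20. In the liver, TNF from Kupffer cells is known for helping to prime hepatocytes for division after hepatectomy, and IL-1 for inducing acute phase genes.

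Gene coordinates of the count table match the GENCODE M21 annotation of mouse GRCm38 for 8 of the 10 genes, all but *Nfkbia* and *Il18*. In the count table *Il1a* (chr2:129299610-129309972), *Il1b* (chr2:129364570-129371139) and *Il1rn* (chr2:24336853-24351494) share chromosome 2. *Il1r1* lies at chr1:40225080-40317257, *Il1rap* at chr16:26581704-26730117 and *Tnfrsf1a* at chr6:125349362-125362484. *Tnf* lies at chr17:35199381-35202007, *Nfkbia* at chr12:55489411-55492647, *Tnfaip3* at chr10:19000910-19015657 and the counted part of *Il18* at chr9:50575273-50581837.

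Libraries held 23997363 to 42887589 counts on genes. Levels are given as normalised CPM, a gene's counts relative to the TMM-scaled size of its library, and differences as log2 fold changes from 1 edgeR quasi-likelihood fit of all 9 livers, with their SE and with p-values adjusted by the Benjamini-Hochberg method over all tested genes. A gene is said to have risen or fallen where its adjusted p was under 0.05. The livers of the NSC group differed more among themselves than those of the other groups, and NSC liver 1 lay farthest from its own group. Hepatocyte markers were abundant in every liver, at a summed 94500 to 135000 CPM. In whole tissue, fewer cells of a type and less RNA per cell cannot be told apart.

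In regenerating vehicle livers, 3 of the 9 tested genes rose and 2 fell. *Il1rn*, *Tnfaip3* and *Tnfrsf1a* rose 6.21-fold, 4.72-fold and 1.82-fold over baseline, and *Il1rap* and *Il18* fell. Of all tested genes 12.7% rose and 11.0% fell in the same comparison. In NSC livers, *Il1a* and *Il1rn* rose and *Il1rap* and *Nfkbia* fell against the same baseline, where 18.2% of all tested genes rose and 16.5% fell. None of the 9 genes passed the adjusted test between NSC and vehicle livers at 40 h, 4 had an unadjusted p under 0.05, and DESeq2 called 2 of them. By the adjusted edgeR test, 0.00% of all tested genes rose in that comparison and 0.0399% fell, or 6 genes. Shares of all tested genes at an unadjusted p under 0.05, or called by DESeq2, are not given here or below.

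**Figure D1:**
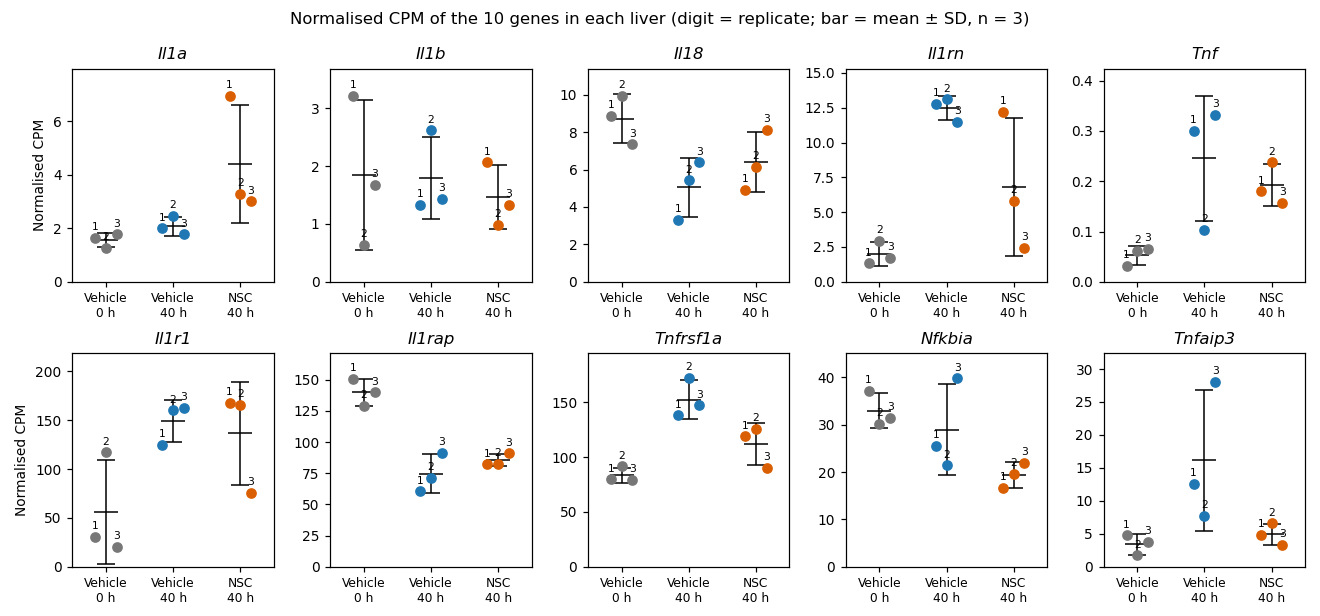
Normalised CPM of the 10 genes in each of the 9 livers (vertical axes, a separate scale per gene, starting at 0) by group (horizontal axes). Coloured points are livers, marked with their replicate number, and black bars give the mean ± SD of 3. The vehicle 40 h points of *Il1rn*, *Tnfaip3* and *Tnfrsf1a* all lie above baseline, and the NSC points of *Il1a* lie above those of both other groups.

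Among the ligands, *Il1a* was measured at 1.64, 1.28 and 1.78 CPM in the baseline livers, 2.00, 2.46 and 1.77 in vehicle livers at 40 h, and 6.96, 3.29 and 3.01 in NSC livers. Every NSC liver was above every liver of the other groups, and NSC liver 1 was the highest, while baseline and vehicle livers overlapped. The rise from baseline to NSC was 1.5 ± 0.34 (SE) on the log2 scale (adjusted p = 0.0057, edgeR), or 2.83-fold, and it was called under all 16 alternative settings. Without NSC liver 1 it was 1.01 (adjusted p = 0.0146). The vehicle change was 0.41 ± 0.34 (adjusted p = 0.42). Between NSC and vehicle livers the difference was 1.09 ± 0.34, with a 95% interval of 0.36 to 1.82, and did not pass adjustment in edgeR (adjusted p = 0.131), whereas DESeq2 gave an adjusted p of 0.0418. Without NSC liver 1 that difference was 0.59 (adjusted p = 0.207 in edgeR).

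Markers of macrophages are given beside *Il1a*. The summed level of 13 Kupffer cell and macrophage markers was 257 to 337 CPM at baseline, 227 to 405 in vehicle livers and 401 to 658 in NSC livers, and NSC liver 1 was again the highest. NSC and vehicle livers overlapped in this sum, the lowest NSC liver being at 401 and the highest vehicle liver at 405 CPM. For *Adgre1*, *Clec4f*, *Vsig4*, *Timd4* and *Cd5l* singly, every NSC liver was above every vehicle liver, as for *Il1a*, and the other markers overlapped. Between these groups 22.5% of all tested genes did not overlap. From baseline to NSC the log2 changes of *Marco* (4.1), *Timd4* (1.48), *Cd5l* (1.39), *Vsig4* (1.11) and *Cd68* (0.97) were called. Those of *Clec4f* (0.08), *Csf1r* (0.09) and *Mertk* (-0.33) were among the ones not called. Of the 13 markers 5 rose from baseline to NSC and 2 from baseline to vehicle by edgeR, and 0 fell. Of all tested genes 18.2% rose from baseline to NSC and 12.7% from baseline to vehicle. Between NSC and vehicle livers edgeR called 0 of them, with 5 at an unadjusted p under 0.05, and DESeq2 called 4, all higher in NSC livers. None of the markers of any list was at 0 in every library. The part of these cells in the *Il1a* result was not tested. An opposite-strand gene, Gm14023, overlaps *Il1a* and had 16 to 37 counts per library beside at least 42 for *Il1a*, and the strand setting of the counting is not given in the sources used here.

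*Il1b*, the other main IL-1 ligand, showed no such order. Its level was 3.22, 0.641 and 1.68 CPM at baseline, 1.33, 2.62 and 1.44 in vehicle livers and 2.07, 0.985 and 1.33 in NSC livers. All 3 groups overlapped, and the baseline livers alone spanned the whole range of the other groups. The vehicle change was -0.04 ± 0.51 (SE, log2; 95% interval -1.16 to 1.08, adjusted p = 0.969) and the NSC change -0.33 ± 0.52 (interval -1.47 to 0.81, adjusted p = 0.651). The difference between the 40 h groups was -0.29 ± 0.52 (interval -1.43 to 0.84, adjusted p = 0.787). Markers of monocytes and neutrophils, cells that can make IL-1β, are given beside it. The sum of 6 monocyte markers without *Fn1*, a fibronectin gene that hepatocytes also express, was 6.53 to 11.2 CPM at baseline, 22.9 to 26.3 in vehicle livers and 20.4 to 34.7 in NSC livers, and 3 of the 6 rose in vehicle livers and 4 in NSC livers. The sum of 11 neutrophil markers was 3.97 to 11.8, 10.6 to 22.0 and 14.4 to 23.5, so that vehicle livers overlapped baseline, and of 7 tested 2 rose in vehicle livers and 4 in NSC livers. Of all tested genes 12.7% rose in vehicle livers and 18.2% in NSC livers. The part of these cells in the *Il1b* values was not tested.

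*Il18* encodes a ligand of the IL-1 family that is made as a precursor and cut by caspase-1. It was at 8.88, 9.95 and 7.36 CPM at baseline, 3.33, 5.42 and 6.39 in vehicle livers and 4.92, 6.15 and 8.14 in NSC livers. Vehicle livers were all below baseline, whereas NSC livers overlapped both other groups. The vehicle decrease was -0.80 ± 0.27 on the log2 scale, just past the threshold (adjusted p = 0.0489), and it lost its call when any of 6 libraries was left out, with adjusted p-values of up to 0.178 and log2 changes of -0.56 to -0.90. Those libraries were all 3 baseline livers, vehicle livers 1 and 2, and NSC liver 2, which enters only the shared spread. The NSC change was -0.45 ± 0.27 (adjusted p = 0.209), and the difference between NSC and vehicle livers was 0.35 ± 0.27 (interval -0.24 to 0.93, adjusted p = 0.495). The counted region of *Il18* began inside the annotated gene and was 714 bases long.

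*Tnf*, the ligand of TNFR1, was near the limit of detection. The baseline libraries held 1, 2 and 2 *Tnf* counts, the vehicle libraries 12, 4 and 9, and the NSC libraries 6, 7 and 4. Every baseline library was below 3 counts, and every library at 40 h was above it, where 3 counts correspond to 0.0751 to 0.117 CPM depending on the library. Relative to the summed TMM-scaled library sizes, *Tnf* was 4.48 times as frequent in vehicle libraries as at baseline (exact 95% interval 1.69 to 15.0). It was 3.65 times as frequent in NSC libraries as at baseline (1.29 to 12.6), and the ratio of NSC to vehicle was 0.813 (0.412 to 1.57). These intervals cover counting error only. Over livers, the exact two-sided permutation test gave p = 0.1 for both comparisons with baseline, the smallest that 3 against 3 allows, and p = 0.5 between the 40 h groups. With no filter on low counts, edgeR gave *Tnf* log2 changes of 2.12 ± 0.86 in vehicle livers (adjusted p = 0.101) and 1.79 ± 0.88 in NSC livers (adjusted p = 0.167).

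The antagonist *Il1rn* had the largest fold change of the 9 tested genes in vehicle livers. It was at 1.33, 2.96 and 1.72 CPM at baseline and at 12.8, 13.1 and 11.5 in vehicle livers, a narrow range well above every baseline liver. NSC livers were spread out, at 12.2, 5.84 and 2.43 CPM: liver 1 lay within the vehicle range, liver 2 between the groups, and liver 3 within the baseline range. The vehicle rise was 2.63 ± 0.53 on the log2 scale (adjusted p = 0.00703) and was called under all 16 alternatives. The NSC rise was 1.77 ± 0.52 (adjusted p = 0.0265), and 5 of the 16 alternatives ended its call. Without NSC liver 1 the rise was 1.05 (adjusted p = 0.0555), and without baseline liver 1 or 3 the adjusted p was 0.0878 or 0.0949. It was 0.0911 with no filter on low counts and 0.0517 with only the 2 groups in the fit. The difference between NSC and vehicle was -0.86 ± 0.49 (interval -1.96 to 0.24, adjusted p = 0.355). With NSC liver 1 left out it was -1.59 (adjusted p = 0.0361), and with NSC liver 3 left out -0.47.

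The balance of antagonist and agonist messages can be read within each liver from FPKM, the deposited values per gene length. The ratio of *Il1rn* to the sum of *Il1a* and *Il1b* was 0.0951, 0.543 and 0.174 at baseline, 1.35, 0.905 and 1.26 in vehicle livers and 0.477, 0.483 and 0.197 in NSC livers. Each vehicle liver exceeded every liver of the other groups, while NSC and baseline livers overlapped. In NSC liver 1, where *Il1rn* alone was as high as in vehicle livers, the ratio was still below the vehicle range, since *Il1a* was also highest there. *Il1a* exceeded *Il1b* by 3.25, 3.23 and 2.19 times per length in the NSC livers, against 1.46, 0.909 and 1.19 in vehicle livers and 0.493, 1.93 and 1.02 at baseline, so that NSC livers were above all others. These ratios were chosen after the levels had been seen and carry no test.

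**Figure D2:**
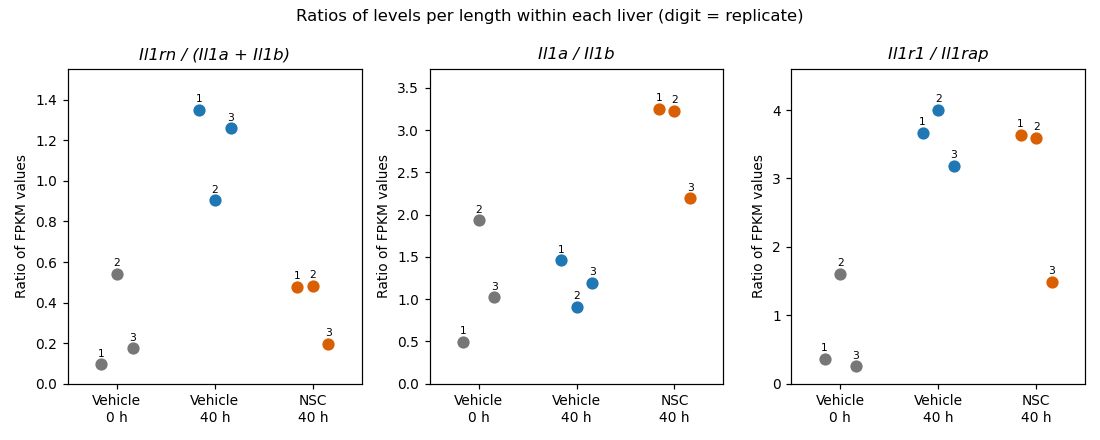
Ratios of FPKM values within each liver (vertical axes, starting at 0) by group, with each point a liver marked by its replicate number. From left to right the panels show antagonist over summed ligands, *Il1a* over *Il1b*, and the receptor chain *Il1r1* over its partner *Il1rap*. Vehicle 40 h livers are highest in the first panel, NSC livers in the second.

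The chains of the IL-1 receptor did not move together. *Il1r1*, the ligand-binding chain, was at 30.7, 117 and 20.1 CPM at baseline, 125, 160 and 163 in vehicle livers and 168, 166 and 75.9 in NSC livers. Vehicle livers were all above baseline, by a small margin over baseline liver 2, and NSC liver 3 was below that baseline liver. The log2 changes were 1.42 ± 0.65 in vehicle livers (interval -0.11 to 2.95, adjusted p = 0.162) and 1.29 ± 0.65 in NSC livers (interval -0.23 to 2.82, adjusted p = 0.166). A single baseline liver decided the calls: without baseline liver 2 the changes were 2.56 (adjusted p = 0.00155) and 2.43 (adjusted p = 0.00135). NSC and vehicle livers differed by -0.13 ± 0.64, with an interval of -1.62 to 1.37.

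*Il1rap*, the shared signalling partner of several IL-1 family receptors, went the other way. Its level was 151, 129 and 140 CPM at baseline, 60.6, 71.4 and 91.6 in vehicle livers and 82.3, 82.8 and 91.1 in NSC livers. All 6 livers at 40 h were below all baseline livers. The decrease was -0.91 ± 0.16 in vehicle livers (adjusted p = 0.00242) and -0.71 ± 0.16 in NSC livers (adjusted p = 0.00578), each called under all 16 alternatives. The 40 h groups overlapped and differed by 0.20 ± 0.16 (interval -0.16 to 0.55, adjusted p = 0.525). Gm20319, on the opposite strand, overlaps *Il1rap* and had 886 to 2254 counts per library beside at least 2328 for *Il1rap*. Per length, *Il1r1* was 0.363, 1.61 and 0.256 times *Il1rap* in the baseline livers, 3.67, 4.0 and 3.18 times in vehicle livers and 3.64, 3.59 and 1.49 times in NSC livers. By this measure the partner was the more abundant message in baseline livers 1 and 3, and the ligand-binding chain in every 40 h liver. The order depends on the counted lengths, 11360 bases for *Il1rap* and 6363 for *Il1r1*, and isoforms were not resolved. In CPM *Il1rap* was the higher in NSC liver 3 (91.1 against 75.9) and in baseline liver 2 (129 against 117).

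*Tnfrsf1a*, which encodes TNFR1, the main signalling receptor of TNF, was the most abundant of the 10 messages per length in every group, at 31.1 ± 2.58, 57.0 ± 2.55 and 45.7 ± 7.66 FPKM (SD, n = 3) in baseline, vehicle and NSC livers. In CPM it was at 79.7, 91.5 and 79.3 at baseline, 138, 172 and 147 in vehicle livers and 119, 126 and 89.9 in NSC livers. Vehicle livers were above every other liver, NSC livers 1 and 2 were intermediate, and NSC liver 3 was within the baseline range. The vehicle rise was 0.87 ± 0.16 on the log2 scale (adjusted p = 0.00312), called under all 16 alternatives. The NSC change of 0.42 ± 0.16 did not pass (adjusted p = 0.0659), but it did without NSC liver 3 (0.55, adjusted p = 0.0166) and with scaling by library size only (0.56, adjusted p = 0.0183), a scaling that moved the median of all genes to 0.15. NSC livers were below vehicle livers by -0.45 ± 0.16 (interval -0.81 to -0.09), with an unadjusted p of 0.0175 in edgeR and an adjusted p of 0.173.

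The feedback inhibitors are shown with the DNA before their start sites, because NF-κB is known to drive both genes from there. The 250 bases before each RefSeq start (GRCm38.p6) were searched on both strands for the consensus κB site. The site was found in 7.25% of 32851 promoters and in 3 of the 14 promoters of members. By gene, a promoter of 8.23% of 27025 genes held it and of 3 of the 10 members, *Tnfaip3*, *Nfkbia* and a second start of *Il1r1*. Matches are in capitals, in sequences written from 5′ to 3′ on the strand of the gene.
Tnfaip3: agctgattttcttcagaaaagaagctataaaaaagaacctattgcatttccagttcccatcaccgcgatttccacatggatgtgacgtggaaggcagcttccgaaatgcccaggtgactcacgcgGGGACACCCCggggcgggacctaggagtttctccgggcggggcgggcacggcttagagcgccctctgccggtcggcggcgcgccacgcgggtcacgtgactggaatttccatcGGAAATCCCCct
Nfkbia: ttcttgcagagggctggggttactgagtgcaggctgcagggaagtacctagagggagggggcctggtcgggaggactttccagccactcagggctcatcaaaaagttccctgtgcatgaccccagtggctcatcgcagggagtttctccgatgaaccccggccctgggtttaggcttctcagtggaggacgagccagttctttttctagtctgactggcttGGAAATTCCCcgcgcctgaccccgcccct
The first lies at chr10:19015411-19015660 and the second at chr12:55492648-55492897, both genes being on the minus strand. The printed *Tnfaip3* promoter held 2 matches, 125 to 116 and 12 to 3 bases before the start, and *Nfkbia* held 1 at 29 to 20 bases. The promoter of another *Tnfaip3* start (chr10:19011964-19012213) held 0. A match describes the sequence only, and binding was not measured.

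*Tnfaip3* was at 4.77, 1.71 and 3.73 CPM at baseline, 12.6, 7.70 and 28.1 in vehicle livers and 4.83, 6.59 and 3.33 in NSC livers. All vehicle livers exceeded all other livers, vehicle liver 3 by the most, and NSC and baseline livers overlapped. The vehicle rise was 2.24 ± 0.54 on the log2 scale (adjusted p = 0.0174). Its call was lost without baseline liver 3 (adjusted p = 0.0608) and with no filter on low counts (adjusted p = 0.0606), and without vehicle liver 3 the rise was 1.58 (adjusted p = 0.032). The NSC change was 0.53 ± 0.53 (interval -0.67 to 1.74, adjusted p = 0.471). NSC livers were below vehicle livers by -1.71 ± 0.53 (interval -2.90 to -0.51), a 3.26-fold difference with an unadjusted p of 0.0105 that did not pass adjustment in edgeR (adjusted p = 0.148) and did in DESeq2 (adjusted p = 0.0103). Without vehicle liver 3 the difference was -1.04 (adjusted p = 0.182 in edgeR).

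*Nfkbia* was at 37.1, 30.2 and 31.5 CPM at baseline, 25.6, 21.4 and 39.8 in vehicle livers and 16.6, 19.6 and 22.0 in NSC livers. NSC livers were all below baseline and overlapped only the lowest vehicle liver, and vehicle liver 3 was the highest of all, as it was for *Tnfaip3*. The vehicle change was -0.19 ± 0.21 (interval -0.65 to 0.27, adjusted p = 0.561). The NSC decrease was -0.76 ± 0.21 on the log2 scale (adjusted p = 0.0158) and was called under 15 of 16 alternatives, the exception being the fit without baseline liver 1 (-0.67, adjusted p = 0.0596). NSC and vehicle livers differed by -0.58 ± 0.21 (interval -1.04 to -0.11, unadjusted p = 0.0189, adjusted p = 0.178 in edgeR).

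**Figure D3:**
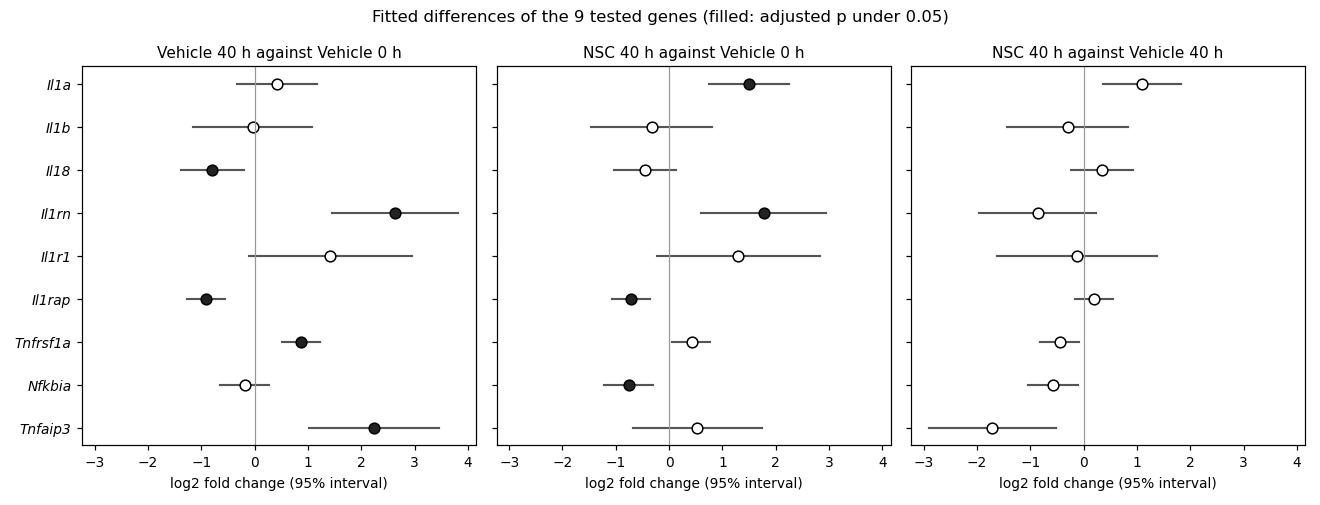
Log2 fold changes of the 9 tested genes (horizontal axes) with their 95% intervals (lines) in the 3 comparisons, from the edgeR fit of 9 livers. Filled points have an adjusted p under 0.05. There are 5 filled points for vehicle against baseline, 4 for NSC against baseline and 0 for NSC against vehicle, where the intervals of *Il1a*, *Tnfrsf1a*, *Nfkbia* and *Tnfaip3* leave out 0.

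Counted over the 9 tested genes, the groups did not overlap for 6 genes between vehicle and baseline, where 46.3% of all tested genes did not, for 3 between NSC and baseline (47.1% of all), and for 3 between NSC and vehicle (22.5% of all). With an absolute log2 fold change over 1.5 required as well, 2 of the 9 passed in vehicle livers (*Il1rn* and *Tnfaip3*; 7.22% of all tested genes), 1 in NSC livers (*Il1rn*; 8.13%) and 0 between the 40 h groups (0.0200%). Median log2 changes of the 9 were 0.41, 0.42 and -0.29, beside 0.01, 0.01 and 0.02 for all tested genes. Per length, *Nfkbia* followed *Tnfrsf1a* at baseline with 20.1 ± 2.13 FPKM, and *Il1rap* (11.9 ± 0.915), *Il18* (11.8 ± 1.72) and *Il1r1* (8.47 ± 8.03) did not differ beyond their spread. *Il1b*, *Il1a*, *Tnfaip3* and *Il1rn* all averaged under 1 FPKM there, from 0.934 down to 0.349, and *Tnf* was at 0.0312 ± 0.0111.

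The rest of both pathways was followed with 93 further genes in 9 lists, of which 81 were tested. In vehicle livers 20 rose and 3 fell, where 12.7% of all tested genes rose and 11.0% fell. In NSC livers 18 rose and 9 fell, where 18.2% of all rose and 16.5% fell. Summed over both directions, the called share of the lists was near that of all genes in both comparisons with the shared baseline. By direction, the calls of the lists leaned further to rises than those of all genes in vehicle livers, and less so in NSC livers. Of the 20 rises in vehicle livers 7 were NF-κB target genes, and the inflammasome and IL-1 receptor signalling lists had 0. The lists were chosen with earlier results of these data known, and the lean was not tested. Between the 40 h groups edgeR called 0, with 24 at an unadjusted p under 0.05 and 7 called by DESeq2. No share over all tested genes is given beside the unadjusted and DESeq2 counts. The median log2 changes were 0.15, 0.10 and -0.09.

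Within the IL-1 family, *Il33*, an alarmin, rose from 1.37 CPM at baseline to 5.83 in vehicle livers (2.08 ± 0.26, adjusted p = 0.000284) and 6.71 in NSC livers (2.28 ± 0.26, adjusted p = 0.000118). *Il18r1*, a receptor chain for IL-18, rose from 0.235 to 3.21 CPM in vehicle livers (3.75 ± 0.92, adjusted p = 0.0176). In NSC livers it averaged 1.89 CPM (adjusted p = 0.0316), but NSC liver 3 at 0.157 CPM lay within the baseline range. Of 8 inflammasome and maturation genes, edgeR and DESeq2 each called 0 in vehicle livers, with 1 at an unadjusted p under 0.05 in edgeR, and in NSC livers 1, *Casp4*, rose. *Casp4* encodes caspase-11, and its change was 1.13 (adjusted p = 0.0244). Beside these counts, 12.7% of all tested genes rose and 11.0% fell in vehicle livers, and 18.2% rose and 16.5% fell in NSC livers. The 13 tested IL-1 receptor signalling genes, among them *Myd88* and the *Irak* kinases, had 0 calls in all 3 comparisons by edgeR, with 2, 1 and 1 at an unadjusted p under 0.05 (vehicle, NSC, and NSC against vehicle) and 0, 1 and 0 called by DESeq2.

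Of 15 TNF receptor and complex genes, 3 rose and 2 fell in vehicle livers, and 5 rose and 5 fell in NSC livers, beside the 12.7% up and 11.0% down of all tested genes in vehicle livers and 18.2% and 16.5% in NSC livers. *Tnfrsf1b*, the other TNF receptor, was at 83.4, 59.9 and 48.9 CPM at baseline, 34.0, 45.9 and 21.3 in vehicle livers and 27.3, 19.4 and 22.0 in NSC livers, below baseline in all 6 remnants. It fell in both (-0.92 ± 0.28, adjusted p = 0.0335, and -1.48 ± 0.28, adjusted p = 0.00268), against the direction of *Tnfrsf1a* in vehicle livers. *Ripk3*, the necroptosis kinase, rose from 0.933 to 1.94 CPM in vehicle livers and to 2.40 in NSC livers (1.36 ± 0.34, adjusted p = 0.00946).

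Among 15 tested NF-κB target genes, which include cytokine and chemokine genes, 7 rose and 1 fell in vehicle livers (median log2 change 1.01), and 5 rose and 1 fell in NSC livers (median 0.68). Of all tested genes 12.7% rose and 11.0% fell in vehicle livers, and 18.2% rose and 16.5% fell in NSC livers. *Lcn2*, an acute phase protein that binds siderophores, was at 20.3, 197 and 27.1 CPM at baseline and between 747 and 1600 in the 6 remnants (4.16 ± 0.93, adjusted p = 0.0171, in vehicle livers and 3.92 ± 0.92, adjusted p = 0.0145, in NSC livers). The chemokine genes *Ccl2* and *Cxcl1* rose in both groups, *Ccl2* by 3.35 ± 0.49 (adjusted p = 0.000779) and 2.52 ± 0.49 (adjusted p = 0.00255), and *Cxcl1* by 2.83 ± 0.59 (adjusted p = 0.0123) and 1.75 ± 0.57 (adjusted p = 0.0477). *Cxcl2*, another neutrophil chemokine, rose in vehicle livers (2.91 ± 0.58, adjusted p = 0.0041), and in NSC livers its change was 0.69 ± 0.65 (adjusted p = 0.436). *Gadd45b*, a stress response gene, fell in NSC livers (-2.79 ± 0.91, adjusted p = 0.0494), and its baseline livers ranged from 3.24 to 28.9 CPM.

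*Ier3*, an immediate early gene of NF-κB, was highest in vehicle livers, as *Tnfaip3* was. It was at 0.632, 0.733 and 0.429 CPM at baseline, 5.26, 5.16 and 4.80 in vehicle livers and 2.22, 0.815 and 1.02 in NSC livers, so the 3 groups did not overlap. It rose in both groups, by 3.07 ± 0.39 (adjusted p = 0.000301) and 1.18 ± 0.39 (adjusted p = 0.0342). NSC livers were below vehicle livers by -1.89 ± 0.36, with an adjusted p of 0.0849 in edgeR, 0.000251 in DESeq2 and 0.00941 in edgeR with no filter on low counts. The genes that DESeq2 called between NSC and vehicle livers were *Rhbdf2*, *Nfkb2*, *Relb*, *Nfkbib*, *Nfkbiz*, *Cxcl10* and *Ier3*, all lower in NSC livers, with log2 differences from -0.63 to -1.88. Of these *Nfkb2* and *Relb* encode NF-κB subunits and *Nfkbib* and *Nfkbiz* members of the IκB family, and they were picked out here because of those calls. The edgeR adjusted p-values of the 7 ran from 0.0849 to 0.123. The 15 tested NF-κB targets had a median difference of -0.66 between NSC and vehicle livers, beside 0.02 for all tested genes.

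**Figure D4:**
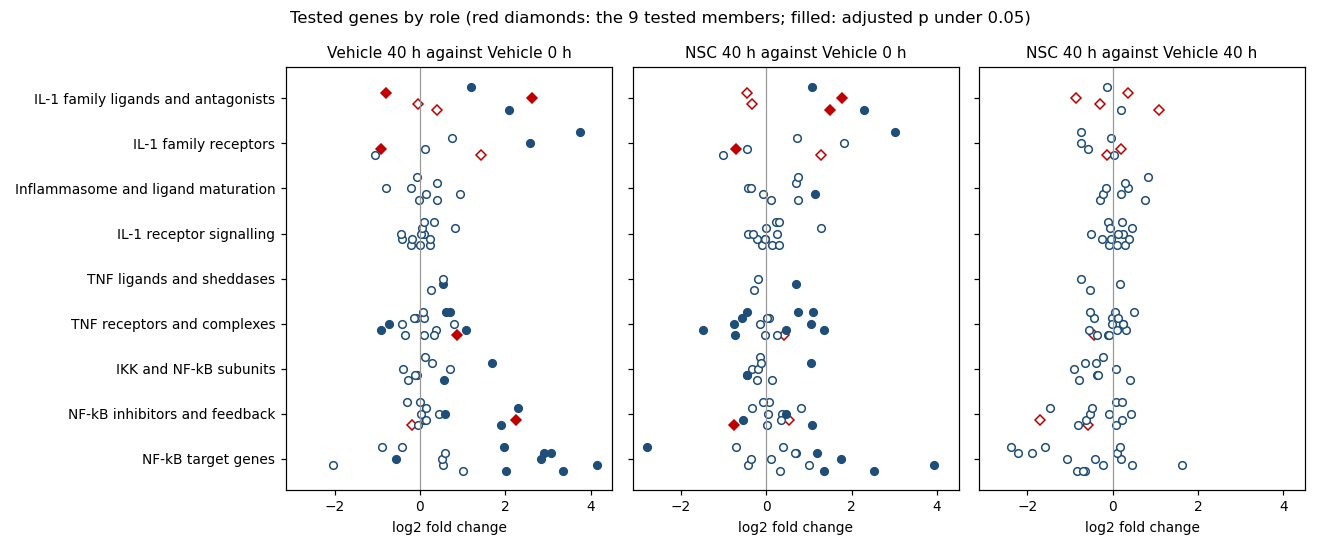
Log2 fold changes (horizontal axes) of the 81 tested pathway genes (blue circles) and the 9 tested members (red diamonds) in 9 lists by role (vertical axis), in 3 panels for the 3 comparisons. Filled symbols have an adjusted p under 0.05, and vertical spread within a list is for legibility. Filled symbols are densest to the right among NF-κB target genes in vehicle livers, and the right panel has none.

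Markers of other cell types were read in the same livers. Summed stellate cell markers were at 186 to 222 CPM at baseline, 303 to 392 in vehicle livers and 222 to 377 in NSC livers, and 5 of 8 rose in vehicle livers and 1 in NSC livers. Sinusoidal endothelial markers were at 211 to 220, 132 to 203 and 161 to 277 CPM, and of 7 tested 2 fell in vehicle livers and 0 were called in NSC livers by edgeR or DESeq2, with 0 at an unadjusted p under 0.05. Lymphocyte markers were at 3.76 to 12.8, 1.66 to 3.96 and 3.80 to 4.54 CPM, overlapping in every comparison, and of 8 tested 2 fell in vehicle livers and 1 in NSC livers. Cholangiocyte markers were at 37.8 to 40.6, 76.0 to 114 and 79.0 to 121 CPM, and of 5 tested 4 rose in vehicle livers and 3 in NSC livers. Of 8 hepatocyte markers 4 fell in vehicle livers and 5 in NSC livers. Beside these marker counts, 12.7% of all tested genes rose and 11.0% fell in vehicle livers, and 18.2% rose and 16.5% fell in NSC livers. The part of cell composition in the results above was not tested.

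**Figure D5:**
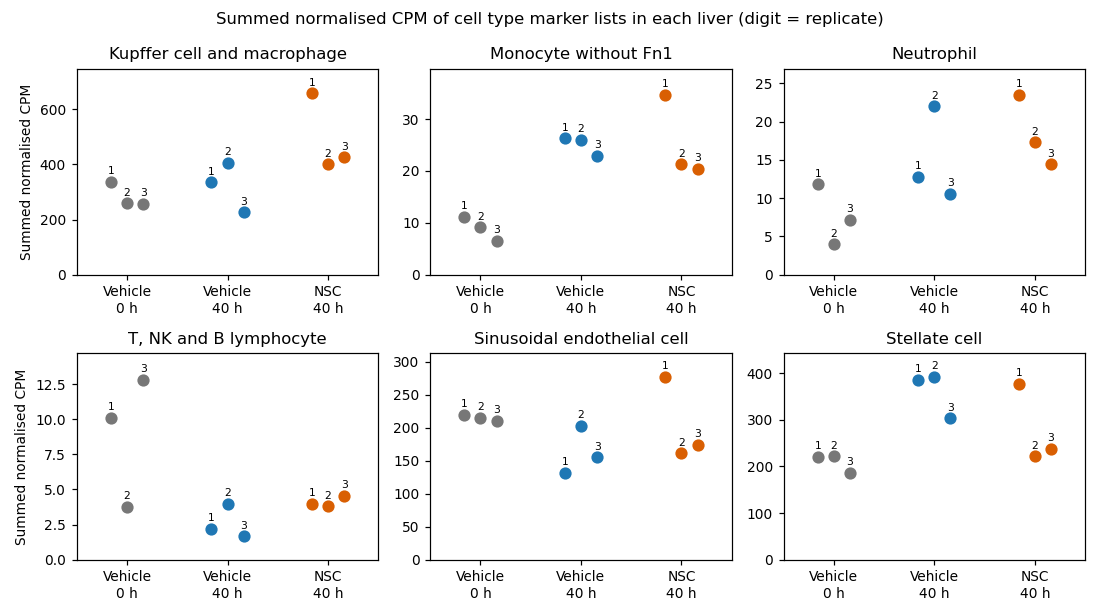
Summed normalised CPM of 6 marker lists in each liver (vertical axes, starting at 0) by group, with each point a liver marked by its replicate number. Kupffer cell and macrophage markers are highest in NSC liver 1 (658), and monocyte markers without *Fn1* lie above baseline in all 6 remnants.

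For each tested gene, those of the other tested genes whose pattern over the 9 livers was closest were found by the root mean square difference of log2 CPM centred on each gene's mean. Closest to *Tnfaip3* was *Cxcl10*, a chemokine gene, at a difference of 0.297. It was at 1.90, 0.672 and 1.02 CPM at baseline, 5.13, 3.01 and 6.13 in vehicle livers and 1.44, 2.04 and 1.25 in NSC livers, and vehicle liver 3 was again the highest. *Creld2* (0.389) and *Mllt11* (0.519) followed. Close to *Il1a* stood *Abcg3* (0.127) and *Gm8995* (0.189). *Il1rap* was closest to *Mblac2* (0.0955), *Gm17196* (0.103) and *Acadsb* (0.105), and *Tnfrsf1a* to *Ptpn1* (0.105), *Sel1l3* (0.111) and *Kng1* (0.112). *Il18* stood nearest *Adh5* (0.107), *Ndufa6* (0.166) and *Cfhr3* (0.169), and *Nfkbia* nearest *Ppp1r10* (0.167), *Inpp5e* (0.187) and *Gm14719* (0.194). The nearest neighbours of *Il1b*, *Il1rn* and *Il1r1* were less close, *Csf3r* at 0.322, *Bicd1* at 0.268 and *Gm11963* at 0.340. All of these patterns share the same 9 libraries and their depth.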

How the data were processed

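Strand-specific libraries of polyadenylated RNA from 9 mouse livers were analysed. The authors aligned reads with STAR 2.6.1 in the MAP-RSeq pipeline, assigned them to genes with Subread 1.5.1, and deposited raw counts per gene and library; the strand setting is not given in the sources used here. The deposited FPKM values are close to these counts per gene length and library total, differing from that quotient by at most 0.14% for the 10 members and 7.69% for all genes above 1 FPKM. The sources name a human build, but the genes carry mouse Ensembl identifiers, of which 42462 are in GENCODE M21 (GRCm38). For 8 of the 10 members the coordinates were the same.

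Tests were run with edgeR 4.0.16 under R 4.3.3 (TMM, filterByExpr, robust quasi-likelihood fit of 9 libraries with group as the only term); the 16 alternative settings for each member were RLE factors, library size only, DESeq2 1.42.0, no low-count filter, at least 10 counts in every library, a replicate block, only the 2 groups compared, and each of 9 libraries left out. SE is the absolute log2 fold change divided by the square root of F. On simulated counts for vehicle against baseline, with 15024 genes, the fit recovered 194 of 200 genes given a 4-fold change and 93 of 200 given a 2-fold one. The simulated spread followed the trend over all genes, so the extra spread of single genes was left out. The NSC comparisons were not simulated, so these counts do not give the recovery for the more variable members or for NSC livers. The *Tnf* interval is an exact conditional (Clopper-Pearson) one. Of the pathway lists, genes called with an absolute log2 fold change over 1 were named, at most 6 per comparison and direction, with up to 3 nearest genes of each member, of which 1 is not reported here; other genes were named after their values were seen. The members and lists were chosen with earlier results of these data known. The monocyte total without *Fn1* was formed after seeing the data. Replicates are called biological by the study, which does not say how they were paired or batched. Surgery cohorts are not in the labels, so no batch was modelled.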

Additional observations from a re-analysis of the deposited data

How the results depend on the processing

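Of 432 single-gene values under alternative settings, 403 kept their direction and their side of the threshold, 14 lost a call, 7 gained one and 8 changed sign. The sign changes concerned genes without a call. *Il1b* in vehicle livers was at -0.44 to 0.63 with a library left out and at 0.16 with a replicate block, *Il1b* in NSC livers at -0.74 to 0.34 and between NSC and vehicle at -0.64 to 0.09 with a library left out, and *Il1r1* between NSC and vehicle at -0.30 to 0.16 with a library left out and at 0.0099 with library size only. With a library left out, calls ranged from 3 to 5 members and 14 to 30 pathway genes in vehicle livers, from 2 to 5 and 14 to 27 in NSC livers, and from 0 to 1 and 0 to 4 between NSC and vehicle. The fewest came without baseline liver 3 (3 members) or baseline liver 1 (14 pathway genes) for vehicle, and without baseline liver 1 (2 members) or baseline liver 3 (14 pathway genes, 17 without NSC liver 2) for NSC; the calls between the 40 h groups came without NSC liver 1 (*Il1rn*; *Nfkb2*, *Icam1*, *Ier3* and *Csf1*). With a log2 fold change over 1.5 required, 2 members and 13 pathway genes passed in vehicle livers and 1 and 6 in NSC livers. Between NSC and vehicle, DESeq2 called 2 members and 7 pathway genes, and no filter on low counts called 3 pathway genes. The cause was not tested. Same-numbered livers correlated at -0.048 to 0.134 in their deviations from group means, and differently numbered ones at -0.115 to 0.066. The labels state no pairing, so the main fit has none, and whether livers of the same number share a mouse or a cohort was not tested. The replicate block gave 5, 4 and 0 member calls in the 3 comparisons. Scaling by library size only moved the median of all genes to 0.15 for NSC against baseline and 0.14 for NSC against vehicle. Depth limits *Tnf*, and 3 livers per group limit all tests.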
